A study of Mus musculus with 2 samples.

Results

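Ribosomal proteins, translation factors and the enzymes that charge transfer RNAs were followed by name on the arrays of LIF-siRNA-treated mouse embryos. The gene spots whose names began with ribosomal protein, laminin receptor 1, eukaryotic translation, nascent polypeptide or poly A binding protein, or held tRNA synthetase, numbered 73 of 8735 gene spots and carried 70 names. They comprised 38 spots of cytosolic ribosomal proteins, 12 of initiation factors, 5 of mitochondrial ribosomal proteins, 4 of S6 kinases, 4 of tRNA synthetases, 4 of eIF2 alpha kinases, 2 of poly A binding proteins, 2 of elongation factors, 1 of the nascent chain complex and 1 of the eIF4E binding protein. Of these, 72 were well above background and were tested among 8079 probes. The spot of eIF2 alpha kinase 2 (PKR, which senses double-stranded RNA) was not well above background in either channel of either array and was not tested.

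LIF, leukemia inhibitory factor, signals to cells through JAK kinases and STAT3. Whole B6CBF1 embryos, labelled as 4 d old, had been injected at the two-pronucleus stage with 1 pl holding, per the labels, 1.0 fmole of LIF-siRNA or of a scrambled siRNA, and RNA was taken at the morula stage; other passages of the study's text give other doses. Pooled embryo RNA from the LIF-siRNA group was labelled with Cy5 and from the scrambled-siRNA group with Cy3, and each of 2 cDNA arrays held both. No dye was swapped, so dye and treatment cannot be told apart in any ratio given here. Nothing says that the arrays came from separate pools of embryos, so their spread may be technical. No spot bore the name of LIF itself, and the knockdown was not checked here. The groups follow the titles and source names; a sample description in the same labels speaks instead of untreated embryonic stem cells and of more replicates than the 2 analysed here.

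Ribosomes are built from a small and a large subunit, each a scaffold of ribosomal RNA covered by ribosomal proteins. Initiation factors bring the messenger RNA and the initiator transfer RNA to the small subunit, elongation factors drive the ribosome along the message, and aminoacyl-tRNA synthetases load the amino acids. The cap-binding factor eIF4E is held back by its binding proteins, and kinases acting on eIF2 lower initiation under stress. In the mouse embryo the zygotic genome supplies new ribosomes during cleavage. Messages of ribosomal proteins and of several translation factors typically begin with a C followed by a run of C and T, the 5′ terminal oligopyrimidine (TOP) tract, through which growth signals regulate their translation.

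The starts shown here were picked from members that hold a TOP tract, including copies of eIF2 subunit 3. By the count given below, 10 of 22 cytosolic ribosomal proteins with a start sequence had a tract. Rps3 had none, and Rps24 also has an annotated start without one. Each line holds 10 bases before and 20 bases from the annotated start on the gene's strand, from RefSeq on build GRCm38.p6, with the tract in capitals.
Rpl28 (chr7:4792955-4792984, plus strand): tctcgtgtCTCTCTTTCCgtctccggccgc
Rpl13a (chr7:45128726-45128755, minus strand): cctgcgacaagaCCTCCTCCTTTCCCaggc
Rpl18 (chr7:45718061-45718090, plus strand): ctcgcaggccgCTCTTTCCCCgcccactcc
Rpl27a (chr7:109519185-109519214, plus strand): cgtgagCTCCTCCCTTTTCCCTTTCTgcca
Rps24 (chr14:24490668-24490697, plus strand): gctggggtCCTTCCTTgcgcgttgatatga
Rps6 (chr4:86857348-86857377, minus strand): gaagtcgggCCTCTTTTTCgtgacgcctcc
Eif2s3x (chrX:94212632-94212661, minus strand): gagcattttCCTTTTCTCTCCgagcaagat
Eif2s3y (chrY:1010585-1010614, plus strand): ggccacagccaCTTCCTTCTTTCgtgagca

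Of 55 names given a mouse symbol, all 55 were found in RefSeq and 36 had a start sequence there. A tract was counted where a C followed by at least 6 bases, each C or T, began within 10 bases of an annotated start; it was searched on the gene's own strand only, over all starts of a gene. It was present for 10 of 22 cytosolic ribosomal proteins (45.5%), for 5 of 14 other members and for 3821 of 27025 genes (14.1%). Messages with the tract lay on both sides of 0: Rpl28 had a mean log2 ratio of -1.28 and Rps24 one of 0.40. The median log2 ratio was -0.36 over the 10 cytosolic ribosomal proteins counted with a tract and -0.13 over the others with a start sequence. These medians describe the genes and were not tested. The tracts counted for Rpl10a, Rpl19 and Eif4e ended before the annotated start, so they lie outside a message that begins there. Rpl10a (-0.88) and Rpl19 (-0.28) are among the 10, so the contrast of medians depends on where a tract is counted. A match of letters does not show where transcription begins in the morula.

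The members were bright spots. Their median processed signal was 6643 in Cy5 and 9365 in Cy3 on array 1 and 6782 and 9176 on array 2, against 470 to 490 over all gene spots. The median raw signal was 65.4 to 79.7 times the local background for members and 4.83 to 6.60 times for all gene spots, and none was saturated. Their ratios were closer between arrays: the median SD over the 2 arrays was 0.13 (log2) for members and 0.25 for all probes, and the correlation between arrays across spots was 0.83 for members and 0.64 for all probes. Over the 1744 probes whose brighter channel exceeded 3000, the median SD was 0.16 and the correlation 0.81, close to the values of the members. Spots are not independent replicates, and these correlations describe the arrays only.

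On the log2 scale of LIF-siRNA over scrambled siRNA, the members lay mostly below 0. Array 1 gave a median of -0.29 for them and array 2 one of -0.34, while the median of all probes tested was 0.00 on both. A lower value in LIF-siRNA-treated embryos on both arrays was found for 46 of 72 members (63.9%), against 36.8% of all probes, and a higher value on both for 16 of 72 (22.2%), against 36.7% of all probes. The other 10 members had opposite signs. The middle of the distribution of mean ratios ran from -0.69 to 0.05 (quartiles) and its ends were -1.54 and 1.17. In RNA from whole embryos, fewer cells of a type and less RNA per cell cannot be told apart.

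**Figure D1:**
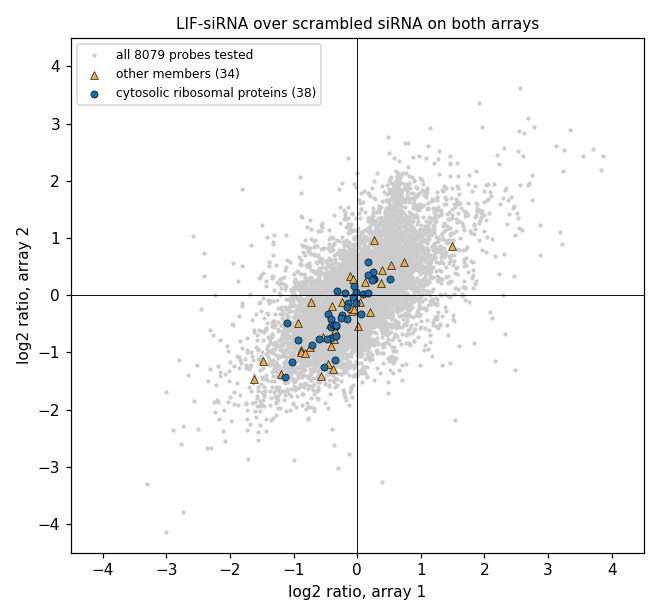
Log2 ratio of LIF-siRNA over scrambled siRNA on array 1 (x axis) against array 2 (y axis); grey points are the 8079 probes tested, circles the 38 cytosolic ribosomal proteins and triangles the 34 other members tested. Most members lie in the lower left, where 46 of 72 were lower on both arrays.

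No single member passed the test. By limma with Benjamini-Hochberg adjustment over all 8079 probes, 0 of 72 members had an adjusted p below 0.05, as did 0% of all probes, and the adjusted p of members ran from 0.058 to 0.957. At an unadjusted p under 0.05, limma gave 25 of 72 members, 23 lower and 2 higher, beside 30.7% of all probes, 14.8% lower and 15.9% higher. The methods' t-test gave 13 of 72 members at an unadjusted p under 0.05, beside 10.7% of all probes, and 0 after adjustment. The study's criteria are a ratio above 2 or below 0.5 with a signal above 1000 in either channel. Applied here to the mean of both arrays, a choice that the methods do not state, 1 of 65 members bright enough was up (5.33% of all such probes) and 4 of 65 were down (5.42%). The member that was up was the Y-linked subunit 3 of eIF2, and those that were down were the eIF4E binding protein 1, mitochondrial ribosomal protein L26, and ribosomal proteins L28 and S3. With the ratio required on both arrays, 0 members were up (2.47% of probes) and 4 down (3.77%). Under median centring, 1 was up (3.83% of probes) and 8 down (7.4%). By array 1 alone, 1 was up (5.03% of probes) and 5 down (6.14%), and by array 2 alone, 0 were up (7.28%) and 8 down (7.45%).

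The call depended on the processing. With normexp background correction and loess, 3 of 72 members passed, all lower (1.96% of probes passed): L28, mitochondrial L26 and the eIF4E binding protein 1. Centring each array on its median without lowess gave 17 of 72 (17.7% of probes), 16 of them lower. In that fit limma gave every spot the same standard error (0.337), so a spot's own spread between arrays did not enter. Keeping only spots well above background in both channels gave 2 of 72 (3.09% of probes), both lower, and keeping only spots with signal above 1000 gave 12 of 65 (18.7% of probes), 11 of them lower. A variance trend with intensity gave 19 of 72 (14% of probes), 17 of them lower. The counts by direction on both arrays moved less: 46 members were lower on both and 16 higher on both with normexp and loess (36% and 37.4% of probes), and 50 and 12 under median centring (37% and 34.4% of probes).

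Cytosolic ribosomal proteins made up the main group. Their median was -0.25 by array 1 and -0.34 by array 2 (log2 ratio), and 24 of 38 (63.2%) were lower on both arrays, 9 (23.7%) were higher on both and 5 had opposite signs, beside 36.8% of all probes lower and 36.7% higher on both. Large-subunit proteins had a median of -0.37 (14 of 20, or 70%, lower on both arrays, 4 higher on both), and small-subunit proteins, counting laminin receptor 1 as ribosomal protein SA, a median of -0.15 (10 of 18, or 55.6%, lower on both, 5 higher on both). The difference between the subunits was not tested. At an unadjusted p under 0.05, limma gave 10 of 38 (26.3%), all of them lower, against 30.7% of all probes, 14.8% lower and 15.9% higher.

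**Figure D2:**
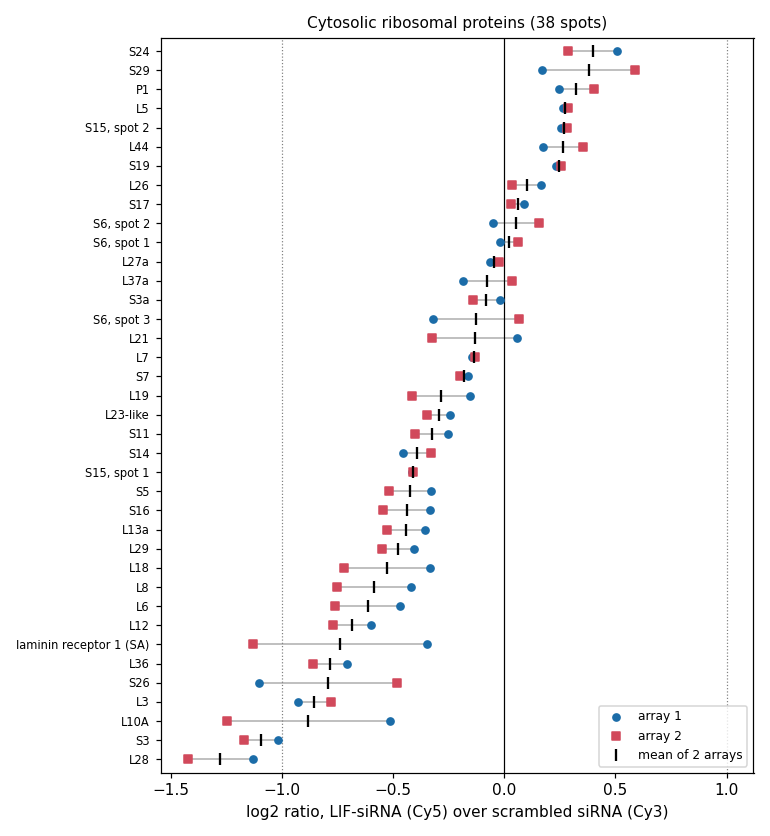
Log2 ratio of LIF-siRNA over scrambled siRNA (x axis) for each of the 38 cytosolic ribosomal protein spots (y axis, ordered by mean); circles are array 1, squares array 2, ticks their mean, and dotted lines a ratio of 2 or 0.5. L28 and S3 lie below -1 on both arrays, and S24 is at the upper end with a mean of 0.40.

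Ribosomal protein L28, of the large subunit, had processed signals of 4346 and 4044 in LIF-siRNA-treated embryos and of 9527 and 10860 in scrambled-siRNA embryos on arrays 1 and 2. Its log2 ratios were -1.13 and -1.43, a mean of -1.28 ± 0.21 (SD, n = 2 arrays), or a ratio of 0.412, with a limma adjusted p of 0.0632. Ribosomal protein S3, which lies where the message enters the small subunit, gave 2039 and 1967 in LIF-siRNA-treated embryos against 4124 and 4437. Its log2 ratios were -1.02 and -1.17, with a limma adjusted p of 0.0699. L28 and S3 were the only cytosolic ribosomal proteins with a mean ratio below 0.5.

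Ribosomal protein L10A, of the large subunit, was at 6557 and 5013 against 9365 and 11905. Its log2 ratios of -0.51 and -1.25 were both below 0 but differed more between arrays than those of L28, and its limma adjusted p was 0.112. Among spots named after their values were seen, L3 had log2 ratios of -0.93 and -0.78, L36 of -0.71 and -0.86, and L12 of -0.60 and -0.77. Ribosomal protein S26 was at -1.10 and -0.48, and laminin receptor 1 at -0.35 and -1.13. The last was a dimmer spot, with mean signals of 304 in Cy5 and 513 in Cy3.

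A smaller set of ribosomal proteins was higher in LIF-siRNA-treated embryos on both arrays, none by as much as the ratio of 2. Ribosomal protein S24, of the small subunit, had signals of 18058 and 16390 against 12693 and 13427, log2 ratios of 0.51 and 0.29. Ribosomal protein S29, also of the small subunit, had log2 ratios of 0.17 and 0.59. P1, an acidic protein of the stalk that engages the elongation factors, had 0.25 and 0.40. L5, which carries 5S ribosomal RNA into the large subunit, had signals of 48577 and 48271 against 40480 and 39623, log2 ratios of 0.26 and 0.28. Limma adjusted p was 0.272 for S24, 0.319 for S29, 0.349 for P1 and 0.417 for L5, so none of these 4 passed the test. Under median centring the mean log2 ratio was 0.25 for S24 (0.40 here), 0.24 for S29 (0.38 here), 0.17 for P1 (0.32 here) and 0.07 for L5 (0.27 here), and L5 was no longer higher on both arrays, at 0.14 and -0.0077. Of the 9 cytosolic ribosomal proteins higher on both arrays, 6 remained so under median centring and all 9 with normexp and loess.

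A pair of names lay on several spots. Ribosomal protein S6, the substrate of the S6 kinases, was on 3 spots of 1 UniGene cluster. Its spot 1 had log2 ratios of -0.02 and 0.06 and its spot 2 of -0.05 and 0.16, with mean signals of 21797 in Cy5 and 21479 in Cy3 for spot 1 and of 21370 and 20580 for spot 2. Its spot 3, with mean signals of 164 in Cy5 and 179 in Cy3, had -0.32 and 0.07. All 3 changed sign between the arrays, and the sign of the mean of spots 1 and 2 turned negative when the arrays were centred on the median. Ribosomal protein S15 was on 2 spots that the files place in different UniGene clusters, and these did not show the same ratio. Spot 1 had log2 ratios of -0.41 and -0.41 and spot 2 of 0.25 and 0.28, a difference between spots of 0.67 on array 1 and 0.69 on array 2. Under median centring the mean of spot 2 was 0.13, against 0.27 here. Which of them carries the S15 sequence could not be read from the files. Without S6 spot 3 and S15 spot 2, a choice made after seeing the data, the median of cytosolic ribosomal proteins was -0.31.

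The members were also set beside other bright probes. Over the 1744 probes whose brighter channel exceeded 3000, the median log2 ratio was 0.01, and over the 33 cytosolic ribosomal proteins among them it was -0.18, with 20 of 33 (60.6%) lower on both arrays against 39.8% of these probes. With normexp and loess these medians were 0.00 and -0.20, and with median centring alone -0.13 and -0.33. In these 3 settings 22, 23 and 23 of the 33 lay below the median of bright probes. Above 10000, where the levels of both sets are closer (median Cy5 signal of 13197 for 26 cytosolic ribosomal proteins and 12231 for 352 probes, against 12168 and 5061 above 3000), the medians were -0.14 and 0.03, and 57.7% against 40.9% were lower on both arrays. Median centring shifted bright probes as a whole by about the same amount as the ribosomal proteins.

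**Figure D3:**
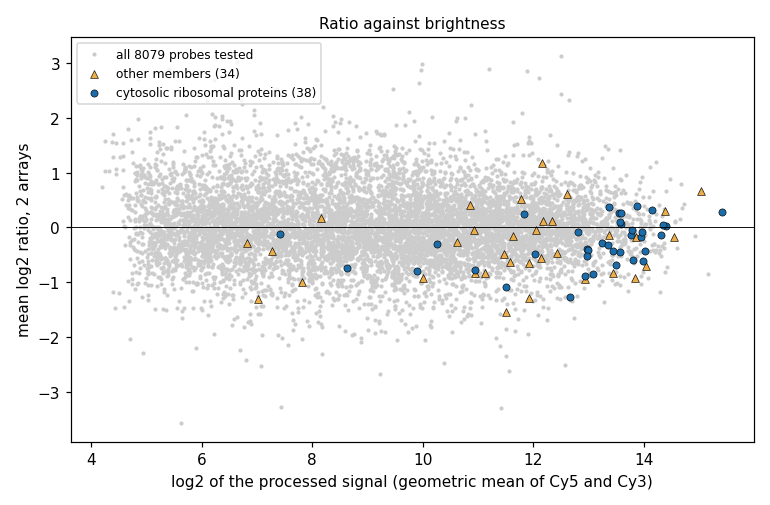
Mean log2 ratio of the 2 arrays (y axis) against the log2 of the processed signal, the geometric mean of Cy5 and Cy3 (x axis); grey points are the 8079 probes tested, circles cytosolic ribosomal proteins and triangles other members. The members sit toward the bright end, where the median of all probes stayed at 0.01 and that of cytosolic ribosomal proteins was -0.18.

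Initiation factors lay in both directions at about the shares of all probes. Of 12 spots, 5 (41.7%) were lower on both arrays, against 36.8% of all probes, 4 (33.3%) were higher on both, against 36.7%, and 3 had opposite signs; medians of -0.09 and 0.05 were found for arrays 1 and 2. At an unadjusted p under 0.05 limma gave 4 lower and 2 higher of the 12, against 14.8% and 15.9% of all probes. The median of the means, 0.04, became -0.11 when the arrays were centred on the median.

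**Figure D4:**
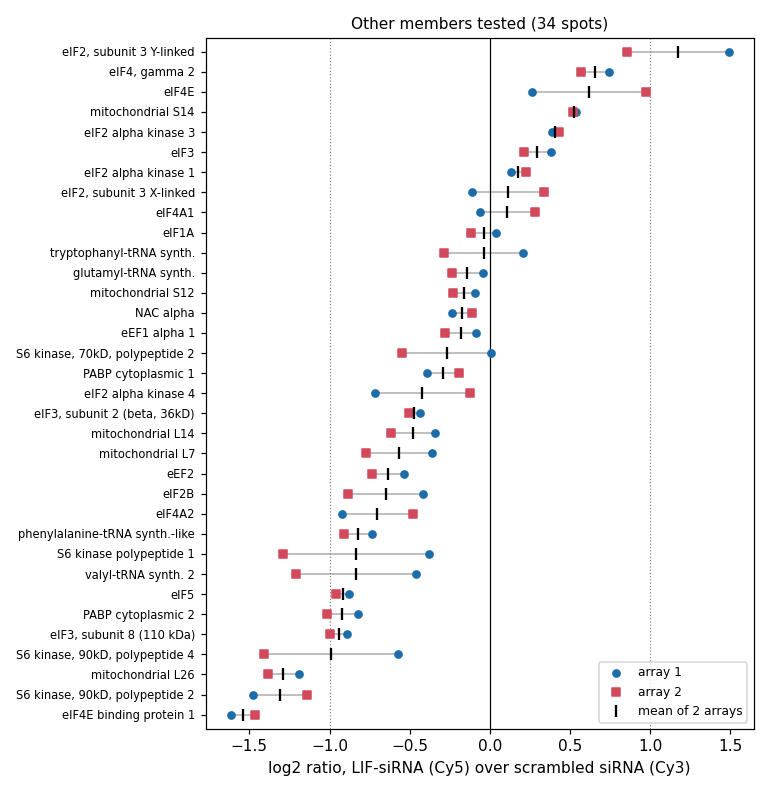
Log2 ratio of LIF-siRNA over scrambled siRNA (x axis) for the 34 members tested that are not cytosolic ribosomal proteins (y axis, ordered by mean); circles are array 1, squares array 2, ticks their mean, and dotted lines a ratio of 2 or 0.5. The eIF4E binding protein 1 lies at the lower end (-1.54) and the Y-linked eIF2 subunit 3 at the upper end (1.17).

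The eIF4E binding protein 1, which blocks cap-dependent initiation by holding eIF4E, had the lowest ratio of all members. Its signals were 1506 and 1916 in LIF-siRNA-treated embryos and 4622 and 5288 in scrambled-siRNA embryos. The log2 ratios were -1.62 and -1.46, a mean of -1.54 ± 0.11 (SD, n = 2 arrays), or a ratio of 0.344, and the limma adjusted p of 0.058 was the smallest among members. eIF4E itself, the cap-binding factor, had signals of 6870 and 8673 against 5727 and 4424, log2 ratios of 0.26 and 0.97 and a limma adjusted p of 0.192. The log2 ratio of eIF4E exceeded that of its binding protein by 1.88 on array 1 and by 2.44 on array 2, a difference described here without a test.

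eIF3 subunit 8, a part of the complex that holds the small subunit ready for initiation, had signals of 5534 and 5707 against 10249 and 11404. Its log2 ratios were -0.89 and -0.999, with a limma adjusted p of 0.0807. eIF5, which triggers GTP hydrolysis by eIF2 at the start codon, had signals of 10239 and 11080 against 18797 and 21580, log2 ratios of -0.88 and -0.96 and a limma adjusted p of 0.0838. Both spots were lower in LIF-siRNA-treated embryos on both arrays, with SDs of 0.08 and 0.06. The spot named only eIF3 was at 0.38 and 0.21, but at 0.31 and -0.05 under median centring. eIF4G2, a relative of the scaffold eIF4G that lacks the eIF4E-binding part, had signals of 42642 and 41807 against 25479 and 28127, log2 ratios of 0.74 and 0.57 and a limma adjusted p of 0.121.

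Closely related factors did not always have like ratios. The helicase eIF4A2 was at -0.93 and -0.48, and its paralog eIF4A1 at -0.06 and 0.28 (a mean of 0.11, and of -0.03 under median centring), so that eIF4A1 exceeded eIF4A2 by 0.86 on array 1 and 0.76 on array 2; these cDNA spots may share hybridised RNA. The Y-linked copy of eIF2 subunit 3, the subunit of eIF2 that binds GTP, had signals of 6851 and 6782 against 2440 and 3756. Its log2 ratios were 1.49 and 0.85, a mean of 1.17 ± 0.45 (SD, n = 2 arrays), or a ratio of 2.25, and its limma adjusted p was 0.0798. The ratio passed 2 on array 1 (2.81) but not on array 2 (1.81). The X-linked copy had log2 ratios of -0.11 and 0.34, and the Y-linked copy exceeded it by 1.60 on array 1 and by 0.51 on array 2. Other Y-linked names, looked up after these values were seen, moved with it: both spots of the Y-linked DEAD box polypeptide were higher on both arrays, at 0.85 and 0.66 and at 1.14 and 0.58, while the dim spot named selected mouse cDNA on the Y was at 1.17 and -0.07. Of X-linked names in the same list, Xist was at -0.52 and -0.09 and Utx at -0.25 and -0.04, lower on both arrays. Their part in the result was not tested.

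**Figure D5:**
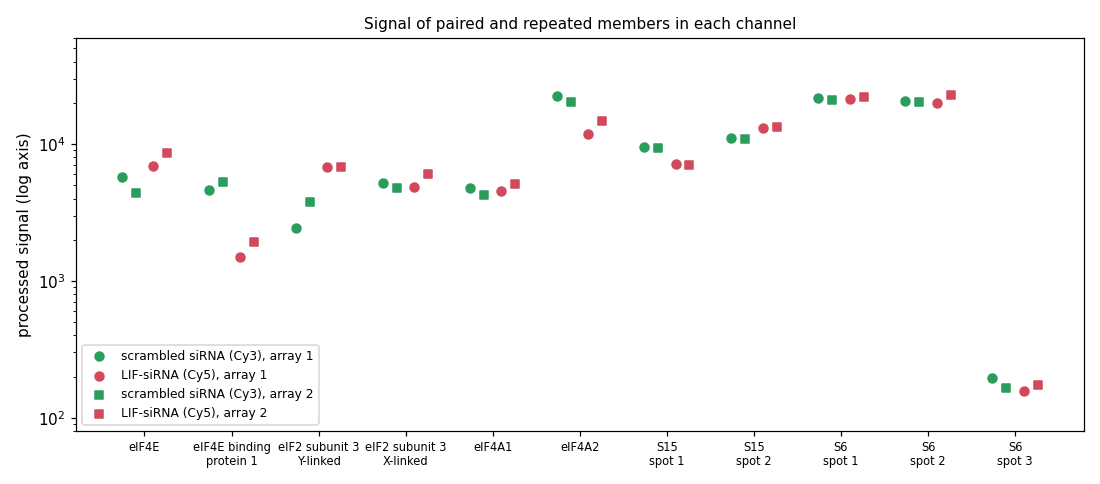
Processed signal (log axis) of eIF4E and its binding protein, the copies of eIF2 subunit 3, eIF4A1 and eIF4A2, and the repeated spots of S15 and S6 in the scrambled-siRNA (Cy3, green) and LIF-siRNA (Cy5, red) channels; circles are array 1 and squares array 2. Channels are to be compared within a spot, since spots differ in their cDNA: the binding protein was at 1506 and 1916 in LIF-siRNA against 4622 and 5288, and the spots of S15 lean opposite ways.

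The kinases that act on eIF2 lay on both sides of 0. eIF2 alpha kinase 3 (PERK, of the endoplasmic reticulum) was at 0.39 and 0.43, eIF2 alpha kinase 1 (activated when heme is low) at 0.13 and 0.22, and eIF2 alpha kinase 4 (GCN2, activated by uncharged transfer RNA) at -0.72 and -0.13. Their limma adjusted p ran from 0.251 to 0.595, and only kinase 3 had a mean signal above 1000. The mean log2 ratio of kinase 3 was 0.27 under median centring (0.41 here). That of kinase 4 was -0.28 with normexp and loess and -0.31 under median centring (-0.42 here).

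All 4 spots of S6 kinases had mean ratios below 0, as did 4054 of the 8079 probes tested. Of the 4 spots, 3 were lower on both arrays and 0 higher on both, against 36.8% and 36.7% of all probes. Their medians were -0.48 on array 1 and -1.22 on array 2. The 90kD polypeptide 2, of the family of kinases activated by ERK, had signals of 66.7 and 98.8 against 186 and 218. Its log2 ratios were -1.48 and -1.14, with a limma adjusted p of 0.0627, but it was too dim for the study's criteria. With normexp and loess its mean log2 ratio was -0.74, against -1.31 here, a ratio no longer below 0.5. The 90kD polypeptide 4 was at -0.57 and -1.41. The spot named S6 kinase polypeptide 1, with no size in its name, was at -0.38 and -1.29. The 70kD polypeptide 2, a kinase of S6 downstream of mTOR, was at 0.01 and -0.55, and at -0.03 and -0.78 under median centring. These spots varied more between arrays than the ribosomal proteins, with a median SD of 0.49 against 0.12.

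Of the mitochondrial ribosomal proteins, which serve the organelle's own ribosomes, 4 of 5 were lower on both arrays and 1 was higher on both. The shares of all probes were 36.8% and 36.7%, and the median of the 5 spots was -0.48. L26 had signals of 2514 and 2455 against 5743 and 6408, log2 ratios of -1.19 and -1.38 and a limma adjusted p of 0.0613. L7 was at -0.36 and -0.77, L14 at -0.35 and -0.62 and S12 at -0.09 and -0.23, the mean of S12 being -0.31 under median centring against -0.16 here. S14 was at 0.54 and 0.52, with signals of 4141 and 4263 against 2855 and 2974 and a limma adjusted p of 0.168. The log2 ratio of S14 exceeded that of L26 by 1.73 and 1.90 on the 2 arrays.

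Elongation factors and the proteins that meet the message or the nascent chain had mean log2 ratios below 0. eEF2, which moves the ribosome along by 1 codon at a time, had signals of 2611 and 2308 against 3785 and 3850, log2 ratios of -0.54 and -0.74 and a limma adjusted p of 0.128. eEF1A1, which delivers aminoacyl-tRNA, was at -0.09 and -0.28. Cytoplasmic poly A binding protein 2 was at -0.83 and -1.01, with a limma adjusted p of 0.0849, and cytoplasmic poly A binding protein 1, a dim spot with signals of 97.8 and 107 against 128 and 122, at -0.39 and -0.19. The latter spot's mean of -0.29 was -0.18 with normexp and loess and -0.13 under median centring, where array 2 was at 0.13. Under median centring the mean of eEF1A1 was -0.35, against -0.18 here. The alpha polypeptide of the nascent polypeptide-associated complex, which shields new chains as they leave the ribosome, was at -0.23 and -0.11, a mean of -0.17 that was -0.32 under median centring.

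Among tRNA synthetases, 3 of 4 were lower on both arrays and 0 higher on both, against 36.8% and 36.7% of all probes. The phenylalanine-tRNA synthetase-like spot had signals of 8090 and 8560 against 13488 and 16079, log2 ratios of -0.74 and -0.91 and a limma adjusted p of 0.0934. Valyl-tRNA synthetase 2 was at -0.46 and -1.21, glutamyl-tRNA synthetase at -0.05 and -0.24 and tryptophanyl-tRNA synthetase at 0.21 and -0.29. Under median centring the means of the last pair were -0.28 and -0.18, against -0.14 and -0.04 here.

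Other genes of the pathway, listed by name outside the members, were counted in the same fit. Of 21 spots tested, 11 were lower on both arrays and 3 higher on both, against 36.8% and 36.7% of all probes, with a median of -0.18. None passed limma's adjusted test (0 of 21), and 5 of 21 had an unadjusted p under 0.05, against 30.7% of all probes. The Finkel-Biskis-Reilly spot (Fau, whose product includes ribosomal protein S30) was at -0.67 and -0.67. In ribosome biogenesis, 3 of 6 were lower on both arrays and 1 higher on both: the 128 kDa subunit of RNA polymerase 1, which transcribes ribosomal RNA, was at -0.63 and -0.95, fibrillarin at -0.09 and -0.18 and nucleophosmin 1 at -0.10 and 0.41. G1 to phase transition 2, a release factor, was at 0.66 and 1.12, and its relative G1 to phase transition 1 at -0.26 and -0.19. Of 6 spots for export to the endoplasmic reticulum, 3 were lower on both arrays and 1 higher on both, with a median of -0.15; the higher one was the 9 kDa protein of the signal recognition particle, at 0.43 and 0.90. Of the 6 spots of genes that control translation, 3 were lower on both arrays and 0 higher on both; the spots of the rapamycin target FRAP1 were at -0.12 and -0.19 and at 0.08 and -0.50.

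Of the embryo markers listed by name, 5 were found and all were tested. Pou5f1 (Oct4) was at -0.28 and 0.05 and cadherin 1 at 0.69 and 0.26, while Sox2 was at -3.00 and -1.69 and keratin 8 at -1.73 and -2.16. Keratin 19 was at 0.22 and -0.14. Their summed signals were 18441 and 20421 in Cy5 and 25753 and 30888 in Cy3. Of 6 spots for blood, cumulus or oviduct cells, 5 were tested and lysozyme was not well above background; their sums were 2689 and 2808 in Cy5 and 4670 and 4083 in Cy3, mostly from hemoglobin X, at -1.30 and -1.28. The other spots of this list were dimmer and mostly higher in LIF-siRNA-treated embryos on both arrays: pentaxin related gene was at 0.67 and 1.68, oviductal glycoprotein 1 at 0.74 and 1.11, and adult beta hemoglobin at 0.75 and 0.77 on one spot and at -0.24 and -0.14 on the other. Their part in the lower ribosomal protein ratios was not tested.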

How the data were processed

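Gene expression was measured on 2 cDNA arrays of 2 colors, Cy5 for LIF-siRNA embryos and Cy3 for scrambled-siRNA embryos each time. The authors deposited Agilent Feature Extraction output: spot intensity, local background, processed signal intensity, and the log10 ratio of Cy5 over Cy3, which their software had normalized by lowess on rank-consistent spots. The log10 ratio was converted to a log2 ratio here. The log2 series table the authors deposited holds the brightness of an array and not a ratio, and was not used for values. The deposited p-value and error columns of single spots were not used.

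Control spots and outlier spots were left out, 23 of 8735 gene spots being outliers (0 members). The 8079 spots that stood well above background, on each array, in Cy5 or Cy3 entered limma 3.58.1 (R 4.3.3; lmFit and eBayes, intercept only), with Benjamini-Hochberg adjustment over all of them and a threshold of 0.05. The script was tested on simulated data. Signal over background and the number of arrays limit the precision; with 2 arrays, the smallest exact two-sided p for a single value is 0.5.

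The members and lists were chosen with earlier results of these data known. Named members were the 10 highest and 10 lowest with the same sign on both arrays, those past the ratio criteria, all members of small classes, names on several spots, and the X- and Y-linked copies. Mitochondrial ribosomal proteins were recognised by the word mitochondrial after ribosomal protein. Other ribosomal protein names, L23-like among them and the S6 kinases apart, were counted as cytosolic. Whether any of these is mitochondrial was not checked. Symbols for RefSeq were assigned from the full names. Alternatives were normexp (offset 50) with loess, median centring, filters on dim spots, outliers kept, an intensity trend, a one-sample t-test, names averaged, and each array left out.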

Additional observations from a re-analysis of the deposited data

How the results depend on the processing

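The main fit is paired, since its ratios were taken within each array, and no further replicate block could be added. The median log2 ratio of all members was -0.41 under median centring and ran from -0.34 to -0.29 with 1 array left out; that of cytosolic ribosomal proteins was -0.41 and from -0.34 to -0.25. The median of initiation factors reversed to -0.11 under median centring and ran from -0.0884 to 0.0468 with 1 array left out. The members passing limma numbered 3 with normexp and loess, 17 with median centring and 2 with both channels above background. They numbered 12 with signal above 1000 and 19 with an intensity trend. These fits also differed in the variance that limma shares across probes, and under median centring all spots had the same standard error. How much each difference moved the counts was not tested. Members passing numbered 0 with outliers kept, with no filter, with names averaged and by the one-sample t-test. Members up by the ratio criteria numbered 0 when the ratio had to pass on both arrays and 0 to 1 with 1 array left out, and members down numbered 8 under median centring and 5 to 8 with 1 array left out. Over all probes, these criteria gave 188 up and 191 down, and 135 and 261 under median centring.

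Single spots near 0 changed sign. S6 spot 1 was at -0.0161 with normexp and loess and -0.15 under median centring, and ran from -0.0203 to 0.0628 with 1 array left out. S6 spot 2 was at -0.11 under median centring and ran from -0.0528 to 0.16, and S6 spot 3 ran from -0.32 to 0.0683. The X-linked eIF2 subunit 3 was at -0.0176 under median centring and ran from -0.11 to 0.34, the 70kD S6 kinase from -0.55 to 0.0063 and tryptophanyl-tRNA synthetase from -0.29 to 0.21. Signal over background limits the dim spots, among them S6 spot 3, poly A binding protein 1, the 90kD S6 kinases and eIF2 alpha kinases 1 and 4.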

Other observations

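Some clones of the translation machinery fell outside the members by their names. Acidic ribosomal phosphoprotein PO, the base of the ribosomal stalk, had log2 ratios of LIF-siRNA over scrambled siRNA of -0.70 and -1.06 on arrays 1 and 2, with signals of 9659 and 8337 against 15683 and 17423 and a limma adjusted p of 0.0932. Clones named only as similar to mitochondrial elongation factor Tu, which delivers aminoacyl-tRNA in mitochondria, lay on 2 spots that went different ways. The first was at 0.36 and 0.24, and the second at -2.09 and -2.00, with signals of 343 and 389 against 1464 and 1561 and a limma adjusted p of 0.058. A clone similar to translation initiation factor IF2 was at 0.48 and 0.78. Of clones named as similar to ribosomal proteins, that of L30A was higher on both arrays, at 0.54 and 0.48 with signals of 7768 and 7277 against 5325 and 5218. The clone similar to human RS20 was at 0.01 and -0.53, and a dim clone similar to human RL32 at -0.88 and -1.21. These clones were looked up after the values were seen, and whether the similar names stand for the same gene could not be read from the files.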
